A study of Homo sapiens with 13 samples.

Results

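The 4 HOX gene clusters were examined for FOXA1 binding in Ishikawa and Hec1A, which are established lines of human endometrial cancer. The assay was ChIP-seq (chromatin immunoprecipitation with sequencing), in which DNA bound by a protein is pulled down with an antibody and sequenced. Members are all listed FOXA1 peaks whose centre lies in a fixed hg19 window around a cluster. The windows are chromosome 7 from 26.90 to 27.50 Mb for HOXA, chromosome 17 from 46.45 to 46.95 Mb for HOXB, chromosome 12 from 54.15 to 54.60 Mb for HOXC, and chromosome 2 from 176.70 to 177.30 Mb for HOXD. They span 2150 kb and held 61 of 68107 listed peaks, which were 47 of 54855 in Ishikawa and 14 of 13252 in Hec1A.

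Peaks of Ishikawa were called on 6 pooled FOXA1 ChIP libraries with 2 pooled inputs (sheared chromatin without immunoprecipitation), and those of Hec1A on 3 pooled FOXA1 ChIP libraries. The labels name 2 Hec1A inputs as well, and the name given to the Hec1A list refers to inputs. The recorded Hec1A command uses none, and this conflict was not resolved. The 9 ChIP libraries were made with the same rabbit FoxA1 antibody (ab23738), and no treatment is labelled for any of the 13 libraries. The pools held 343739762 tags (mapped fragment ends) in Ishikawa and 143055568 tags in Hec1A, with 9.66% and 1.12% of them in peaks. Signals, scores and folds per peak are the authors' values. Each line has 1 pooled list, so values have no replicate error, and differences between the lines were not tested. A site missing from the Hec1A list had not passed that list's own filters, which differ from those of Ishikawa, and was not thereby shown to be unbound. The same holds for a Hec1A peak missing from the Ishikawa list. Of 352089 putative Ishikawa peaks, 246198 were removed by the filter against input. No such filter is recorded for Hec1A peaks, and their list gives no input values. They are therefore not taken as checked against the background that input shows.

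HOX genes encode homeodomain transcription factors that pattern the body from head to tail, and each cluster lists its genes in the order of the body regions they specify. In the female reproductive tract, HOXA10 and HOXA11 act in uterine development and in the receptivity of the endometrium, and HOXA13 acts in its most distal part. HOXB13 is known from the prostate lineage, and HOXC10 and HOXD10 are posterior genes of their clusters. FOXA1 is a forkhead factor that can bind closed chromatin and make it accessible to nuclear hormone receptors. In RefSeq (GRCh38.p14), the clusters hold 39 HOX genes, with SKAP2 and EVX1 as the nearest protein-coding neighbours of HOXA, SKAP1 and TTLL6 of HOXB, CALCOCO1 and SMUG1 of HOXC, and EVX2 and MTX2 of HOXD. No hg19 annotation was used here, so peaks are placed by coordinate, and none is assigned to HOXA10, HOXA11, HOXA13, HOXB13, HOXC10, HOXD10 or another gene.

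FOXA1 peaks were listed in all 4 windows in both lines, and their number per window followed a different order in each. Ishikawa had 14 peaks in the HOXA window, 13 in HOXD, 11 in HOXC and 9 in HOXB. Hec1A had 7 in HOXB, 3 each in HOXA and HOXD, and 1 in HOXC. As listed, HOXB was the window with the fewest Ishikawa peaks and the most Hec1A peaks, but the Hec1A order depends on the filters. When peaks above a clonal fold of 1 were left out, Hec1A had 3 peaks in HOXD, 2 each in HOXA and HOXB, and 1 in HOXC, and at a local fold of 8 or more (tags over the surrounding 10000 bp) it had 1 in HOXA and 0 in HOXB.

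Most of these counts were common across the genome. Over windows of the same length along chromosomes 1 to 22 and X, 34.6% held at least as many Ishikawa peaks as HOXA, 40.2% as HOXD, 31.8% as HOXC and 53.4% as HOXB. For Hec1A the shares were 41.1% for HOXA and HOXD, 69.3% for HOXC and 5.47% for HOXB. Stretches of the genome where no tags can map were not left out of these windows. The shares, and the median given next, may therefore be low. The HOXB window had 7 Hec1A peaks against a median of 2 over windows of its length. Of these 7 peaks 5 had a clonal fold above 1, that is, tags stacked on fewer positions than expected, against 37.7% of Hec1A peaks on chromosome 17 and 28.8% of the Hec1A list. The local background of Hec1A peaks (signal divided by local fold) had a median of 0.954 tags per 10000000 in HOXB, 1.01 over chromosome 17 and 0.810 over the list. The part of clonality and local background in the HOXB count was not tested.

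The 4 windows together were less dense in Ishikawa peaks than their surroundings. Ishikawa had 2.19 peaks per 100 kb in the windows and 3.12 in flanks of the same length on both sides, and Hec1A had 0.651 and 0.744. The windows of HOXA, HOXB and HOXC each lay below their Ishikawa flanks, with 2.33, 1.80 and 2.44 peaks per 100 kb in the windows against 4.08, 2.80 and 3.33. In HOXD the window was close to the mean of its flanks, at 2.17 and 2.25, but the flanks were unlike each other. The lower flank held 8 Ishikawa peaks and the upper 19, against 13 in the window. Hec1A had 3 peaks in the HOXD window and 1 in both of its flanks together.

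**Figure D1:**
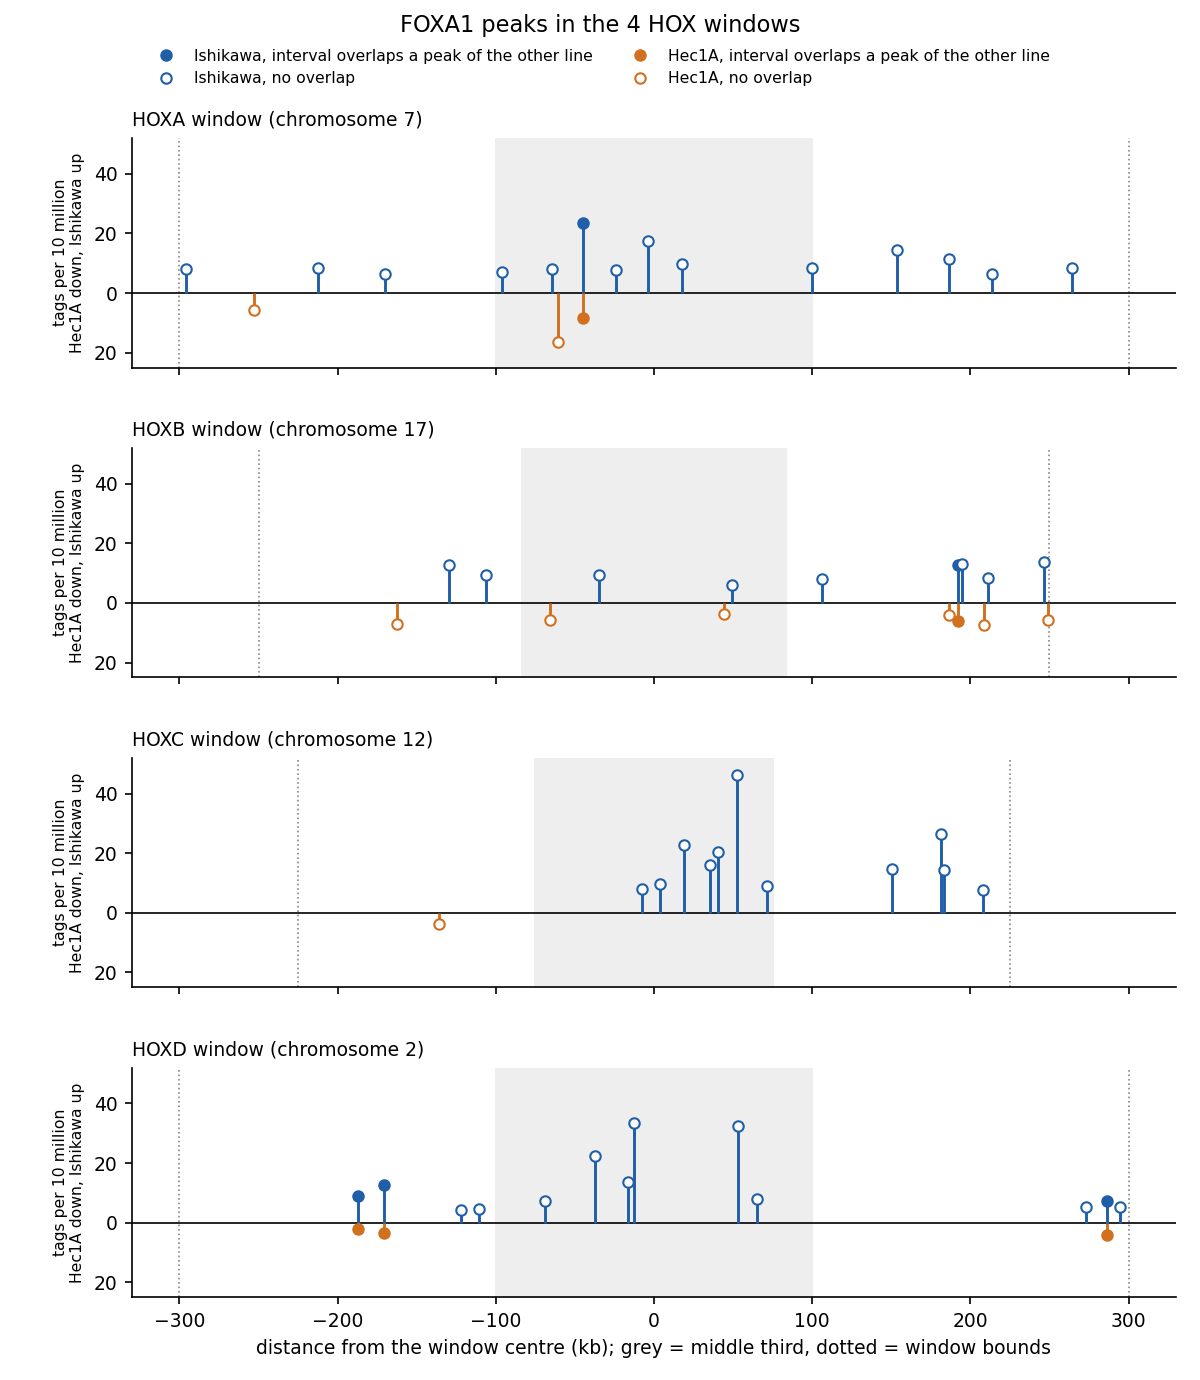
FOXA1 peaks of both lines by distance from the centre of each HOX window (kb), with Ishikawa signal drawn upward and Hec1A signal downward (tags per 10000000). Filled points overlap a peak of the other line, grey marks the middle 1/3 of a window and dotted lines its bounds; the tallest stem is the Ishikawa peak of 46.3 in HOXC, where Hec1A has 1 peak elsewhere in the window.

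The strongest Ishikawa sites of the 4 windows lay near the centre of HOXC and HOXD and had no Hec1A partner. In HOXC the peak at chromosome 12, 54427254 to 54427606, had a signal of 46.3 tags per 10000000, a local fold of 21.0 and a fold of 22.4 over input. It ranked within the highest 6.23% of the Ishikawa list by the findPeaks score, a tag number given by the peak caller. The nearest Hec1A peak lay 188 kb away.

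HOXC held a run of 7 Ishikawa peaks, all between 54.30 and 54.45 Mb. Besides the strongest one, the peaks at 54393658 to 54394010, 54415396 to 54415748 and 54410311 to 54410663 had signals of 22.6, 20.5 and 16.0 tags per 10000000, and local folds of 11.99, 9.14 and 8.21. The other 3 peaks of this run, at 54367276, 54378669 and 54446375, had signals of 8.03, 9.77 and 8.90. Their local folds were 5.19, 5.23 and 4.11, where the list required 4. Toward the upper end of the window, the pair at 54556487 to 54556839 and 54558113 to 54558465 stood 1.63 kb apart. This pair had signals of 26.4 and 14.2 and local folds of 9.65 and 4.24. The other 2 members, at 54525511 and 54582609, had signals of 14.7 and 7.53 and local folds of 8.52 and 4.02. The lower part of the window was empty in Ishikawa over 217 kb from its start. The single Hec1A peak of the HOXC window, at 54238863 to 54239117, fell in that stretch, with a signal of 3.91 and a local fold of 6.14.

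HOXC signals stood at the level of their chromosome. HOXC peaks had a median signal of 14.7 tags per 10000000, against 14.3 over chromosome 12 and 9.69 over the list. Their median local background was 1.95, against 1.98 over chromosome 12 and 1.34 over the list. Pooled input gave a median of 7 tags per HOXC peak, against 8 over chromosome 12 and 5 over the list. The median local fold, a ratio taken within the neighbourhood, was 8.21 in HOXC, against 6.94 over chromosome 12 and 6.93 over the list. The median fold over input was 11.3 in HOXC, against 7.8 over the list, and was not computed over chromosome 12. The part of the background in the HOXC signals was not tested.

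In HOXD the leading Ishikawa peaks were at chromosome 2, 176987223 to 176987575, with a signal of 33.3 and a fold over input of 32.2, and at 177053206 to 177053558, with a signal of 32.5 and a fold over input of 10.5. Their local folds were 16.4 and 17.7, and they ranked within the highest 8.76% and 9.54% of the list. The peaks at 176962259 to 176962611 and 176983619 to 176983971 followed, with signals of 22.2 and 13.8 and folds over input of 28.6 and 4.47. Outside the 5 peaks of highest score, the 8 other HOXD members had signals from 4.33 to 8.90. These 4 central peaks lay between 133 and 224 kb from the nearest Hec1A peak. Beyond the central group, 208 kb up to 177272828 held no peak of either line.

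Of all 47 Ishikawa members, 3 were within the highest 10% of the list by score, against 10.0% of all Ishikawa peaks, and they were the leading HOXC peak and the 2 leading HOXD peaks. None of the 3 had a Hec1A partner, whereas 38.6% of all Ishikawa peaks in that range had one. The exact binomial 95% interval for 0 of 3 reaches up to 70.8%. A local fold of 8 or more was reached by 20 of 47 Ishikawa members, against 40.1% of the list, and by 1 of 14 Hec1A members, against 26.0%. An input fold of 8 or more was reached by 19 of 47 Ishikawa members, against 48.6% of the list.

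**Figure D2:**
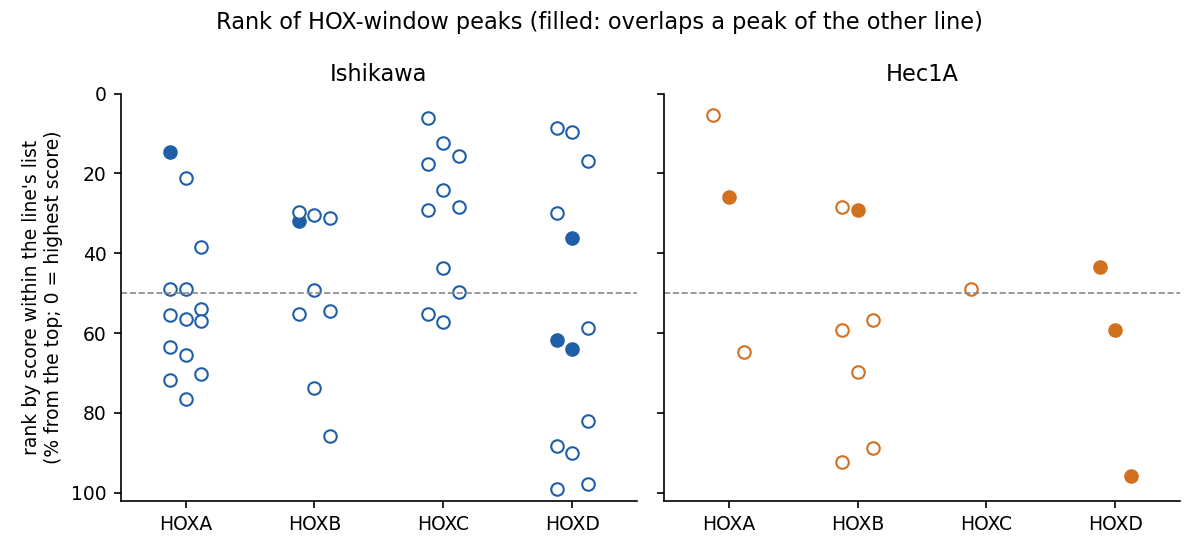
Rank of each HOX-window peak by findPeaks score within the list of its own line (percent from the top, 0 being the highest score), by window, with filled points for peaks that overlap one of the other line and a dashed line at 50%. In Ishikawa the highest points are the open ones of HOXC and HOXD at 6.23%, 8.76% and 9.54%, and in Hec1A the open HOXA point at 5.34%.

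As a whole, HOX-window peaks were of middling strength in both lists. The median signal was 9.25 in Ishikawa members (range 4.33 to 46.3), against 9.69 over the Ishikawa list. In Hec1A members it was 5.66 (range 2.24 to 16.4), against 4.96 over the Hec1A list. The median local fold was 6.86 in Ishikawa members and 6.93 over that list, and 5.08 in Hec1A members and 5.71 over that list. By score, 23 of 47 Ishikawa members and 8 of 14 Hec1A members stood in the lower 50% of their list.

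In the HOXA window the strongest Ishikawa peak was also a Hec1A peak. It lay at chromosome 7, 27154750 to 27155102, with a signal of 23.5 and a fold over input of 11.4, and was followed by the peaks at 27195806 to 27196158, with 17.4, at 27353751 to 27354103, with 14.3, at 27386468 to 27386820, with 11.4, and at 27217423 to 27217775, with 9.66. The 9 other members had signals from 6.25 to 8.32. The peak at 27135457 to 27135809 had the highest fold over input of this window, 15.5, on 2 input tags, but a signal of 8.03 and a local fold of 4.11. The strongest Hec1A peak of all 4 windows, at 27139103 to 27139357, stood 3.597 kb from it, centre to centre. That Hec1A peak had a signal of 16.4, a local fold of 8.04, a clonal fold of 0.66 and a rank within the highest 5.34% of the Hec1A list. The Hec1A order in HOXA thus differed from that of Ishikawa, since the shared site came after it with a Hec1A signal of 8.46. The third Hec1A peak, at 26946916 to 26947170, had a signal of 5.73, a clonal fold of 1.65 and no Ishikawa peak within 40.8 kb.

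In the HOXB window no Ishikawa peak stood far above the others. Ranked by score, the first 5 lay on chromosome 17 at 46946464 to 46946816, with a signal of 13.7, at 46569981 to 46570333, with 12.8, at 46894321 to 46894673, with 13.0, at 46891751 to 46892103, with 12.8, and at 46664936 to 46665288, with 9.25. The first of them had a fold over input of 4.08 on 13 input tags, close to the required fold of 4. The second of them had the highest local fold in this window, 15.1. The peak at 46910947 to 46911299 had the highest fold over input, 10.6. The other 4 Ishikawa peaks had signals from 5.93 to 9.28. The middle 1/3 of the window held 2 of 9 Ishikawa peaks and 2 of 7 Hec1A peaks.

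Of the 6 unshared Hec1A peaks in HOXB, 2 had an Ishikawa peak within 5 kb. The peak at 46949069 to 46949323 (signal 5.87) lay 2.56 kb from the leading Ishikawa peak, and that at 46908206 to 46908460 (7.41) lay 2.79 kb from another. Those at 46743973 to 46744227 (3.77) and 46886415 to 46886669 (3.91) were 5.08 and 5.39 kb from one. The remaining unshared peaks, at 46634235 to 46634489 (5.59) and 46537515 to 46537769 (7.13), were 30.8 and 32.5 kb away. Over the 4 windows, 3 of 9 Hec1A peaks without a partner had an Ishikawa peak within 5 kb, against 20.6% of such Hec1A peaks in the list. For Ishikawa this held for 4 of 42 peaks, against 3.98%.

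**Figure D3:**
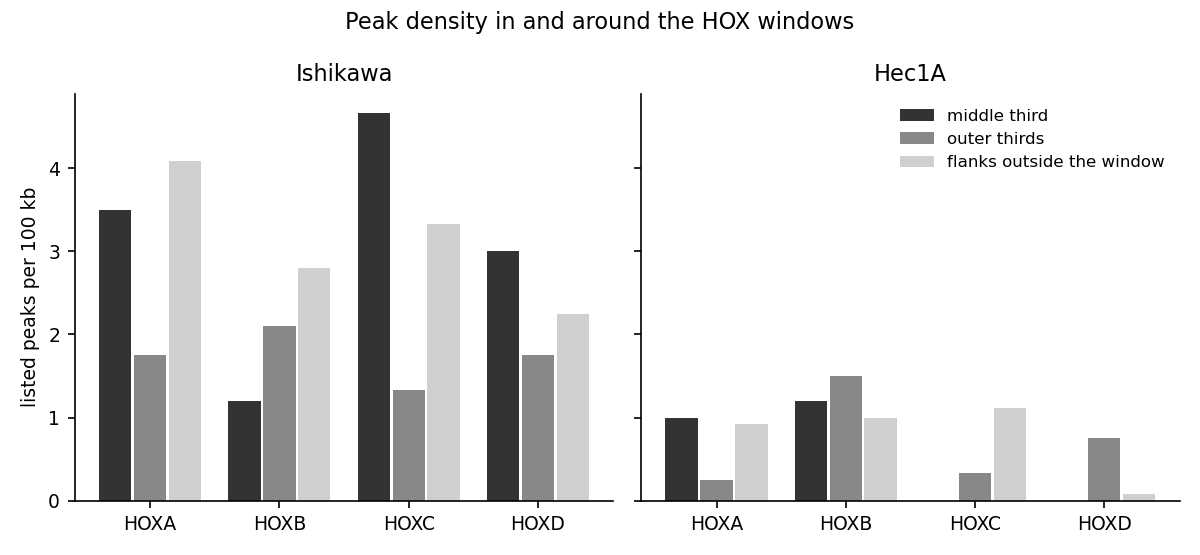
Listed peaks per 100 kb in the middle 1/3 of each HOX window, in its outer parts and in flanks of the window's length on both sides, for Ishikawa and Hec1A. The tallest Ishikawa bar is the middle of HOXC at 4.67, and the Hec1A bars for the middle of HOXC and HOXD are at 0.

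Ishikawa peaks were denser in the middle than in the outer parts of the HOXA, HOXC and HOXD windows, and sparser there in HOXB. The middle 1/3 held 7 of 14 Ishikawa peaks in HOXA, 2 of 9 in HOXB, 7 of 11 in HOXC and 6 of 13 in HOXD, 22 of 47 in all. Per 100 kb this was 3.5 peaks in the middle and 1.75 outside it in HOXA, 4.67 and 1.33 in HOXC, and 3 and 1.75 in HOXD, while HOXB had 1.20 and 2.10. In Hec1A 4 of 14 members lay in the middle, 2 in HOXA and 2 in HOXB. The middle held 57.8% of the summed Ishikawa signal and 40.7% of the summed Hec1A signal, and the Hec1A share rests largely on the peak of 16.4 in HOXA. Over the middle the Ishikawa local background had a median of 1.88, against 1.31 in the outer parts, and its part in these counts was not tested.

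The lines shared 5 sites, of which 3 were in HOXD, 1 in HOXA and 1 in HOXB. Sharing means that the deposited intervals have at least 1 bp in common. The 5 sites were 10.6% of the 47 Ishikawa members (95% exact binomial interval 3.55% to 23.1%), against 12.8% of the list, and 35.7% of the 14 Hec1A members (12.8% to 64.9%), against 52.9% of the list. These intervals cover counting error and treat peaks as independent. All 3 Hec1A peaks of the HOXD window were shared, but 1 of 7 in HOXB. In HOXC 0 of 11 Ishikawa peaks were shared, with a 95% exact binomial interval that reaches up to 28.5%.

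At each shared site the centres nearly coincided, as in the lists as a whole, and the signal was higher in Ishikawa. The median distance of centres was 8 bp over these sites and 14 bp over all 7012 shared pairs. The HOXA site had a signal of 23.5 in Ishikawa (21.9 to 25.2) and 8.46 in Hec1A (7.02 to 10.1), a ratio of 2.78 (2.29 to 3.39), with centres 51 bp apart. The HOXB site, at chromosome 17, 46891764 to 46892018 in Hec1A, had 12.8 in Ishikawa (11.6 to 14.1) and 5.94 in Hec1A (4.75 to 7.35), a ratio of 2.15 (1.70 to 2.75), with centres 36 bp apart. Bounds are exact Poisson 95% intervals of the tags behind a signal, with exact binomial ones for the ratios, and cover counting error alone.

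The HOXD sites at the lower end of the window had the highest ratios, with intervals that overlap that of the HOXA site. At chromosome 2, 176812455 to 176812807, Ishikawa had 8.90 (7.93 to 9.96) and Hec1A 2.24 (1.53 to 3.16), a ratio of 3.97 (2.76 to 5.92). The Hec1A value of this ratio rests on 32 tags, the threshold of that list. At 176828910 to 176829262, Ishikawa had 12.8 (11.6 to 14.1) and Hec1A 3.43 (2.53 to 4.53), a ratio of 3.73 (2.78 to 5.13). This Ishikawa peak had the highest fold over input of all members, 99.1, which rests on the 0.5 input tags that the list gives at this site, and its local fold was 14.9. At 177286169 to 177286521, Ishikawa had 7.33 (6.45 to 8.29) and Hec1A 4.26 (3.26 to 5.48), a ratio of 1.72 (1.295 to 2.31). Centres at these 3 sites were 2, 8 and 4 bp apart.

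The direction at the 5 sites was that of the lists as a whole. Over all 7012 shared pairs the signal was higher in Ishikawa in 93.5%, with a median ratio of 3.53 (interquartile range 2.10 to 5.83), against a median of 2.78 over the HOX sites. Peaks are 353 bp wide in Ishikawa and 254 bp in Hec1A, and the share of tags in peaks differs, so a ratio above 1 does not compare occupancy alone. Within their own lists the sites stood differently. The local fold of the HOXB site was 6.86 in Ishikawa, beside the list median of 6.93, and 7.17 in Hec1A, where the median was 5.71. At the last HOXD site it was 4.83 in Ishikawa and 6.45 in Hec1A, below and above those medians. The remaining sites went the other way, with a Hec1A local fold below its list median and below that of Ishikawa. It was 11.07 in Ishikawa and 4.85 in Hec1A at the HOXA site. At the HOXD sites of the lower end it was 6.20 and 4.60, and 14.9 and 4.75.

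**Figure D4:**
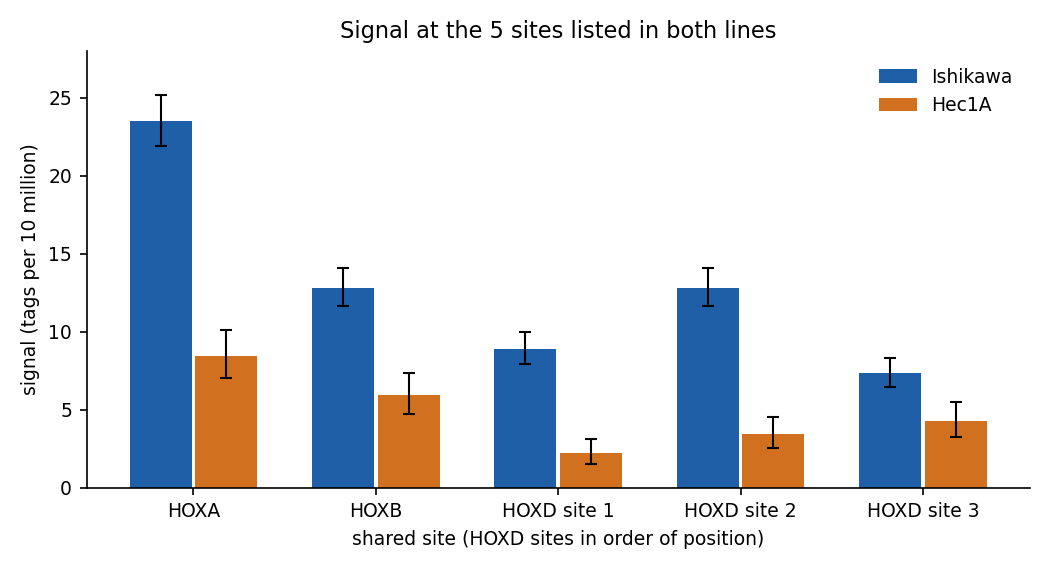
Signal (tags per 10000000) at the 5 shared sites in the pooled Ishikawa and Hec1A lists, with exact Poisson 95% intervals of the tag counts as error bars. The Ishikawa bar is higher at every site, from 23.5 against 8.46 in HOXA to 7.33 against 4.26 at the third HOXD site.

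The shared Hec1A members were all of low clonality. All 5 shared peaks were among the 8 members whose clonal fold was at most 1. Of the 6 above it 0 were shared, with an exact binomial 95% interval that reaches up to 45.9%. Over the Hec1A list, 64.4% and 24.6% of such peaks had an Ishikawa partner. Most shared Hec1A peaks of the whole list were also of low clonality, with 6074 of 7012 at a clonal fold of 1 or less. In Ishikawa 9 of 47 members had a clonal fold above 1, against 25.1% of the list.

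The sequence under the peaks was not analysed here, but forkhead letters were searched in RefSeq promoters (GRCh38.p14, 250 bases before to 50 after the start) of the HOX genes. TGTTTAC or TATTTAC on either strand occurred in 4 of 27 promoters, from 20 of the 39 genes, against 5.97% of all 35116 promoters. HOXC4 and HOXC5 share 1 promoter, so there were 3 distinct matches. They are shown with 12 bases on each side and the match in capitals, 5′ to 3′ on the strand of the gene.
HOXD1: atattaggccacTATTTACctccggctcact
HOXA2: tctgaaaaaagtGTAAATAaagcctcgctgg
HOXC4: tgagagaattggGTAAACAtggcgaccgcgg
HOXD1, HOXA2 and HOXC4 are all anterior genes of their clusters, but the matches are too few to show an order along the clusters. The promoters searched for HOXA10, HOXA11, HOXA13 and HOXD10 held neither motif, and none is given here for HOXB13 or HOXC10. Whether a listed peak lies at any of these promoters was not determined, and a match is a description of the letters alone.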

How the data were processed

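The genome build was hg19 and the tools were HOMER 4.7.2, Bowtie 1.1.2 and SAMtools 1.3.1, per the submitters' processing notes. Per the file headers, findPeaks was run in factor mode on pooled tags of each line, requiring 88 tags in Ishikawa and 32 in Hec1A (false discovery rate 0.001), a fold of 4 over the local 10000 bp and a clonality limit of 2. Ishikawa peaks also had to exceed pooled input by a fold of 4. The deposited signal is tags per 10000000. The deposited focus ratio is a fraction, the score is the authors' tag number, and deposited folds over local region, input and clonality are ratios. The deposited p-value columns and the focus ratio were not used.

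Peaks were assigned to windows by centre. Sharing, densities, local background (signal divided by local fold), tiled windows and exact intervals were computed with Python 3.11.15, NumPy 2.4.6, pandas 2.3.3 and SciPy 1.17.1. Tag counts behind signals were recomputed from signal and depth. No test between lines was run. Window assignment and sharing were tested on simulated peaks. Named peaks are every Hec1A member, every shared pair and, per window, the 5 Ishikawa peaks of highest score and those of highest fold over input and local region; others in the HOXC run were named after their values were seen. Windows and rules were chosen with earlier results of these data known, and the 5 kb distance, the 10% range and the promoter search after the values were seen. Per the labels' protocols, libraries were made with TruSeq or ThruPLEX, and each pool holds both.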

Additional observations from a re-analysis of the deposited data

How the results depend on the processing

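The counts of peaks per window, in the middle of windows and shared between lines were recomputed under stricter thresholds and wider windows, and the shared counts also under other overlap rules. At a local fold of 8 or more, 20 Ishikawa and 1 Hec1A peaks were left, 11 and 1 of them in the middle of their windows, and the number of shared sites was 0 from either list. At an input fold of 8 or more, 19 Ishikawa peaks remained, 12 of them in the middle, with 2 shared sites. With the Ishikawa list reduced to the Hec1A length, 9 Ishikawa peaks were left, 8 of them in the middle, with 1 shared site. With a clonal fold of 1 or less, 8 Hec1A peaks were left, 2 of them in the middle, and 38 Ishikawa peaks, with 5 shared sites. These lower numbers follow from the thresholds, which keep part of the same lists. Centres within 1 kb, or at least 50% of the shorter interval, gave the same 5 shared sites in number. Windows widened by 100 kb on each side gave 67 Ishikawa and 19 Hec1A peaks and 7 shared sites. In HOXC alone the widened window held 21 Ishikawa and 5 Hec1A peaks, in place of 11 and 1. Of 30 recomputed totals 14 stayed within 1.5 times the reported count and 16 were lower. Hec1A has no fold over input, so that threshold was not applied to it. No paired analysis was possible because each list comes from pooled libraries, with no value per library. Leaving out single libraries was not run for the same reason. The weakest Hec1A member rests on 32 tags, the threshold of that list, so weaker sites are outside it.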
